A study of Mus musculus with 3 samples.

Results

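Peaks of tagged Foxd3 were examined around 4 genes in mouse embryonic stem cells: Foxd3 itself and the neural crest regulators Sox10, Tfap2a and Pax3. Members were every listed peak that overlapped a fixed window around each gene in mm9, the mouse genome build of the lists: chr4:99220000-99430000 for Foxd3, chr15:78885000-79095000 for Sox10, chr13:40700000-40935000 for Tfap2a and chr1:78000000-78300000 for Pax3. These windows held 6 of the 3406 peaks listed for the HA precipitation and 5 of the 4569 listed for the Flag precipitation. The Sox10 window was empty in the Flag list, and each other window held at least 1 peak in each list. As a scale, when all chromosomes were cut into consecutive tiles of 210 kb, the length of the Foxd3 and Sox10 windows, 20.0% of tiles held at least 1 HA peak and 24.9% at least 1 Flag peak.

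The cells were LF2 embryonic stem cells, a mouse line, transduced with a pTrip lentivirus that added Foxd3 fused to Flag and HA epitope tags (FH-Foxd3), and selected with neomycin. All groups share this addition, and the labels name no deletion. The cells were cultured with serum and LIF and without feeder cells. The series has 3 samples. Chromatin was precipitated once through the HA tag and once through the Flag tag, and the input DNA was not analysed here. Tagged protein was pulled down, so the peaks report the added Foxd3 and not the cells' own. The series design describes its level as nearly endogenous. No precipitation from cells without the tags was analysed here, and the peak lists hold no measure by which the cell type could be checked.

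Each list gives a chromosome, a start and an end per peak, with no height, p-value or read count. Read depth is therefore unknown. The lists do not state the threshold at which peaks were kept, nor why a site is absent. With 1 library per antibody there is no replicate error, and differences are described without a test. The HA and Flag peaks are 2 readings of the same tagged protein, and the 4 windows are not replicates of a condition.

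Foxd3 is a forkhead transcription factor that is expressed in pluripotent cells of the early embryo and again in the neural crest, a migratory population that forms peripheral neurons, glia and pigment cells. In the crest it acts with other transcription factors. Pax3, a paired-box factor, and Tfap2a, the AP-2 alpha factor, act early, at the border of the neural plate. Sox10, an HMG-box factor, marks crest cells and is kept in their glial and pigment descendants.

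The sequence before the start of Foxd3 is printed because no peak of either list was found at the gene. It comes from RefSeq on build GRCm38.p6, chr4:99656049-99656298, plus strand, whose numbering cannot be compared with that of the mm9 peaks. These are the 250 bases before the annotated start, and capitals would mark the forkhead cores TGTTTA and TGTTTG on either strand:
Foxd3 promoter: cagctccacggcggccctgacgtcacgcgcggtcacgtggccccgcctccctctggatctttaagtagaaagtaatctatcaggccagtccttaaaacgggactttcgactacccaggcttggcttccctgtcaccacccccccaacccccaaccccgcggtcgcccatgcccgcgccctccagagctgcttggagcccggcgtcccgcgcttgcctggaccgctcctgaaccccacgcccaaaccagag
No capitals appear, since the stretch holds 0 matches. Among all 32851 promoters of that length, 25.3% hold at least 1 of the 2 cores, which differ from each other in their last base. The same table held 2 start regions for Tfap2a, also with 0 matches each. The share over all promoters was not matched to base composition. G and C make up 65.6% of the Foxd3 stretch, and 47.6% and 60.4% of the Tfap2a stretches. Absence says only that these letters are not in these windows. The sequences of the peaks themselves are not printed here.

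Both antibodies listed the same 3 sites beside Foxd3. Over the whole lists, 73.3% of HA peaks overlapped a Flag peak and 54.7% of Flag peaks overlapped an HA peak. The HA peaks lay at chr4:99302379-99303823, chr4:99308303-99309073 and chr4:99341729-99342245. The Flag peaks lay at chr4:99302369-99303325, chr4:99308167-99309121 and chr4:99341792-99342307. Each Flag peak overlapped 1 HA peak and no site was listed by a single antibody. Together the 3 peaks covered 2733 bp in HA and 2428 bp in Flag.

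No listed peak touched the gene itself. The single Foxd3 exon was taken at about 99.323 to 99.325 Mb, and 0 peaks of either list overlapped it. The nearest peak, the second, ended 13.9 kb before the exon in each list. The first ended 19.2 kb before it in the HA list and 19.7 kb before it in the Flag list. The third began beyond the exon, by 16.7 kb in the HA list and 16.8 kb in the Flag list. Since the stated exon is rounded to a kilobase, these distances carry an error of that order. Foxd3 is annotated on the plus strand in GRCm38.p6, so with the same orientation in mm9 the first and second sites lie on the side of its start and the third beyond its end. Reads from the added Foxd3 could map to the exon of the cells' own gene, and no listed peak lay there. In RefSeq order the nearest protein-coding neighbours of Foxd3 are Atg4c, an autophagy protease, on the lower side and Alg6, a glucosyltransferase of N-glycosylation, on the higher side. Which of the 3 genes, if any, each peak acts on was not measured.

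**Figure D1:**
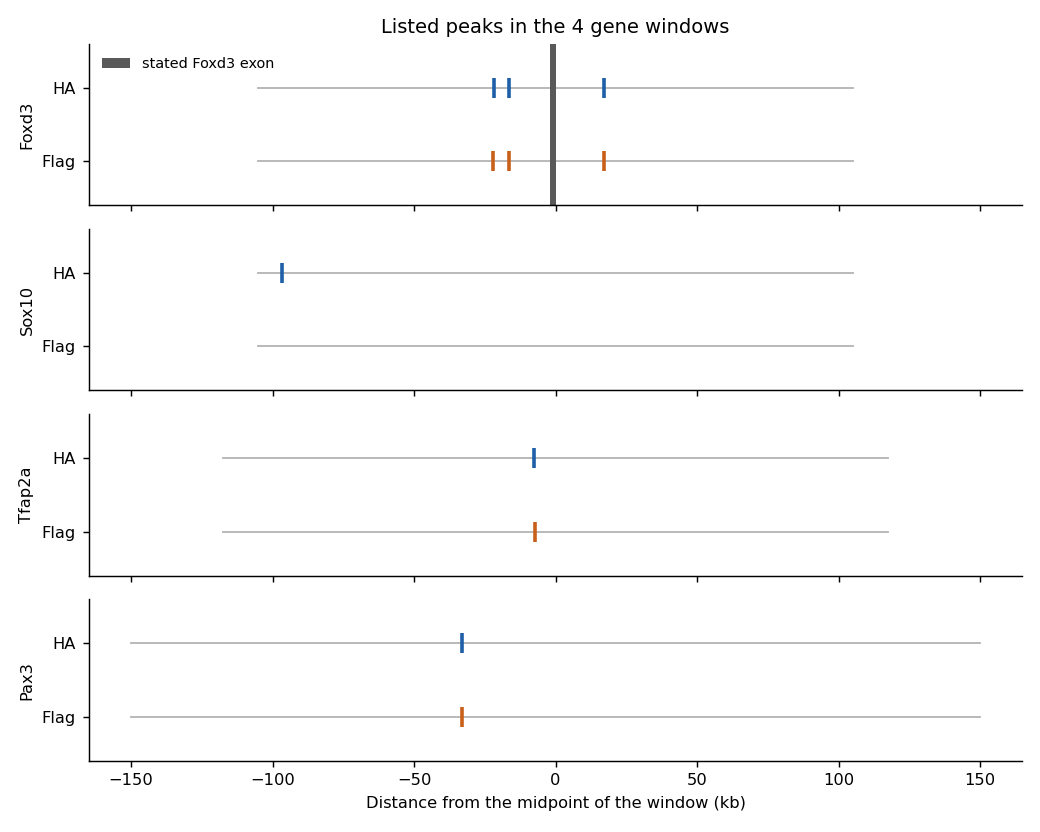
Peaks in the 4 windows, plotted as distance in kb from the midpoint of each window, with HA peaks on the upper line and Flag peaks on the lower line of each panel. Ticks mark peak centres and are not drawn to width, and the grey band is the stated Foxd3 exon. The 3 Foxd3 sites stand on either side of the band with none on it, and the Flag line of Sox10 is empty.

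The 3 Foxd3 sites differed from each other in width and in place in the list. In the HA list their widths were 1445, 771 and 517 bp in order along the chromosome. In the Flag list they were 957, 955 and 516 bp. The first site was thus the widest in HA, wider than 98.6% of that list, while in Flag the first and second were of nearly equal width, each wider than 92.1% of the list. The third was close to the middle of both lists, with 44.1% of HA peaks and 54.7% of Flag peaks narrower.

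Place in the deposited lists followed the same order, although the lists do not state what their line order means. The first site stood on line 66 of the HA list and line 170 of the Flag list, behind 1.91% and 3.70% of the peaks. The second stood on lines 255 and 410, behind 7.46% and 8.95%. The third came far later, on lines 2202 and 2902, behind 64.6% and 63.5%. For each of the 3 sites the lists gave a like place, differing by 1.79, 1.49 and 1.13 percentage points of list length. The median difference over the 2474 sites where 1 HA peak met 1 Flag peak was 10.6 points.

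The outline of the first Foxd3 site differed between the lists, and with 1 library each the antibody and the library cannot be told apart. Its HA and Flag peaks began 10 bp apart and ended 498 bp apart, so the HA peak reached further toward the gene. Their centres were 254 bp apart, more than in 96.1% of the 2474 pairs, whose median was 50.5 bp. The second and last sites had centres 44 and 62.5 bp apart. At the second site the HA peak lay entirely inside the Flag peak. The overlap made up 65.1%, 80.7% and 78.4% of the joint extent of the first, second and last sites, against a median of 76.4% over all pairs. By this measure, which is relative to width, the first site was less extreme, since 22.5% of pairs overlapped less.

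**Figure D2:**
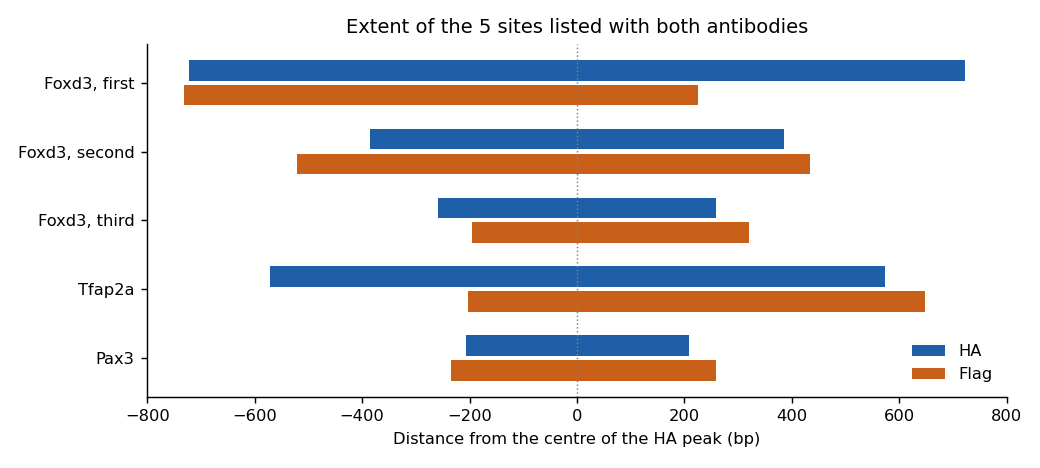
Extent of the HA and Flag peaks at the 5 sites listed with both antibodies, drawn to scale in bp from the centre of the HA peak. The first Foxd3 site and the Tfap2a site show the longest HA peaks and the largest shifts between the lists, with centres 254 and 222 bp apart, and the Pax3 peaks are the closest, with centres 11.5 bp apart.

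The Foxd3 window was dense in peaks. The first and second sites were separated by 4.48 kb in HA and 4.84 kb in Flag, and the second and last by 32.7 kb in each list. Over the window this made 14.3 peaks per Mb in each list, against 1.30 HA and 1.75 Flag peaks per Mb over all chromosomes. In windows this short 1 peak already exceeds those rates. The rate was 4.76 per Mb for Sox10 in HA (0 in Flag), and 4.26 for Tfap2a and 3.33 for Pax3 in each list. Tiles of 210 kb with at least 3 peaks made up 1.47% (183 of 12456) in HA and 2.44% (304) in Flag. The window is centred on a chosen gene and the tiles are not, so these shares are a scale for the count and no test of it. The Foxd3 window was chosen with the peaks known.

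Closely spaced triples were found elsewhere as well. The 3 Foxd3 peaks spanned 39.9 kb in each list. Of 3366 runs of 3 neighbouring HA peaks, 119 (3.54%) spanned no more than that, and in 52 of them all peaks were shared with Flag. In the Flag list 164 of 4529 runs (3.62%) did so, 49 of them with all peaks shared with HA. These counts include the Foxd3 run itself, and runs that follow each other share peaks. The share of all runs with every peak shared is not given, so the counts of shared runs have no scale. Outside the window, the next peak on the lower side was 392 kb beyond the window edge in each list. On the higher side it was 189 kb beyond in HA, at an HA-only peak, and 340 kb beyond in Flag.

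**Figure D3:**
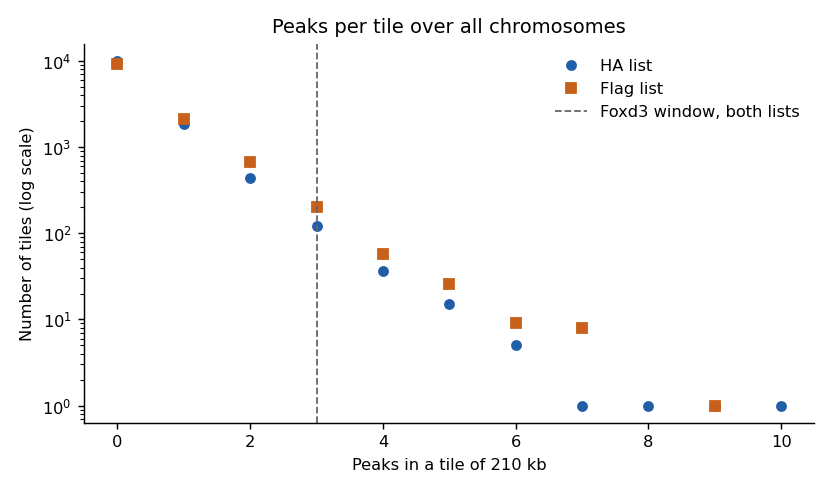
Number of 210 kb tiles, on a log axis, by the number of peaks they held, for the HA list (circles) and the Flag list (squares). The dashed line marks the 3 peaks of the Foxd3 window, a count reached or passed by 183 HA tiles and 304 Flag tiles, and a count that no tile held has no point.

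Tfap2a had 1 site, listed by both antibodies and wide in each. The HA peak at chr13:40809387-40810530 was 1144 bp wide, and the Flag peak at chr13:40809756-40810605 was 850 bp wide. They were wider than 95.9% of the HA list and 88.0% of the Flag list. The HA peak stood on line 62, the earliest line of any peak in the 4 windows, and the Flag peak on line 331, behind 1.79% and 7.22% of the peaks. Their centres were 222 bp apart, more than in 94.5% of pairs, and they overlapped over 775 bp. That overlap was 63.6% of their joint extent, and 20.0% of pairs had a smaller one. As at the first Foxd3 site, the HA peak was the longer, here because it began 369 bp earlier, while the ends were 75 bp apart.

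The Tfap2a site stood alone. The nearest other peak of its own list was about 1700 kb away in either list, a gap larger than for 97.6% of HA peaks and 98.5% of Flag peaks. The median peak had a neighbour at 126 kb in HA and at 88.3 kb in Flag. Tiles of the same 235 kb with at least 1 peak made up 21.7% in HA and 27.2% in Flag. The site lay 7.5 kb (HA) and 7.3 kb (Flag) below the midpoint of the window. The mm9 position of Tfap2a within the window was not used here, so whether the peak falls in an exon, in an intron or outside the gene is not given. In RefSeq on GRCm38.p6, Tfap2a overlaps the long non-coding RNA Gm26688 and has Ofcc1 and Gcnt2 as its nearest protein-coding neighbours.

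Pax3 also had 1 site with both antibodies, but a narrow one. The HA peak at chr1:78116553-78116967 was 415 bp wide, and the Flag peak at chr1:78116526-78117017 was 492 bp wide. Only 22.5% of HA peaks were narrower, while the Flag peak was at the middle of its list with 50.2% narrower. The HA peak lay entirely inside the Flag peak and their centres were 11.5 bp apart, closer than in most pairs, since 12.9% had a smaller distance. Relative to width the pair was less extreme. The overlap was 84.3% of the joint extent, and 73.8% of pairs overlapped less. The site lay 33.2 kb below the window midpoint in each list.

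The place of the Pax3 site differed widely between the lists. It was on line 808 in HA, behind 23.7% of the peaks, and on line 4045 in Flag, behind 88.5%. That difference of 64.8 points was larger than in 99.6% of the 2474 pairs. The nearest other peak was 623 kb away in HA and 646 kb away in Flag. Tiles of the same 300 kb with at least 1 peak made up 26.2% in HA and 32.5% in Flag. The peak was not assigned to a part of Pax3, because its mm9 gene model was not used here. The nearest protein-coding gene below Pax3 in RefSeq order is Epha4, an ephrin receptor, and above it Gm2102.

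Sox10 had no site that both antibodies listed. Its only peak was in the HA list, at chr15:78893272-78893647, and the Flag list was empty over the whole window. The HA peak was 376 bp wide, with 14.9% of the list narrower, and stood on line 2807, behind 82.4% of the peaks. It was the narrowest and the latest in its list of the 6 HA peaks in the windows. It lay 8.3 kb inside the lower edge of the window and 96.5 kb from the midpoint. As for the Tfap2a and Pax3 peaks, no mm9 gene position was used, so its link to Sox10 rests on the window alone. The nearest Flag peak was 312 kb away and the nearest other HA peak 353 kb away. The first peak above the window was shared, 152 kb beyond its edge in each list. Below the window the next Flag peak was 304 kb beyond the edge and the next HA peak 906 kb beyond. The closest protein-coding neighbours of Sox10 in RefSeq order are Polr2f, a subunit of RNA polymerases, and Pick1. Most tiles of that length were also empty in the Flag list (9351 of 12456).

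Across the 4 windows, 5 of 6 HA peaks were shared with Flag, which is 83.3% (exact 95% binomial interval 35.9 to 99.6, counting error only). Over the whole HA list 73.3% were shared. Unshared HA peaks were rarer on the first lines of the list than further down, so that share is not matched to place in the list. All 5 Flag peaks were shared with HA (100%, exact interval 47.8 to 100), against 54.7% of the whole Flag list. The intervals treat the peaks as independent, although 3 in each list came from the Foxd3 window. The Flag interval counts the same 5 sites again. With so few peaks the intervals are wide and no difference from the lists is read from these shares. Widths ran from 376 to 1445 bp in HA, with a median of 644 bp against 547 bp for the list, and from 492 to 957 bp in Flag, with a median of 850 bp against 490 bp. Of the window peaks, 3 of 6 in HA and 5 of 5 in Flag were wider than the median of their list. The Pax3 Flag peak passed that median only narrowly, at 492 bp. All 5 Flag peaks were shared, and Flag peaks of the 2474 pairs had a higher median, 547 bp. The Pax3 peak and the third Foxd3 peak, at 492 and 516 bp in Flag, were narrower than that.

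**Figure D4:**
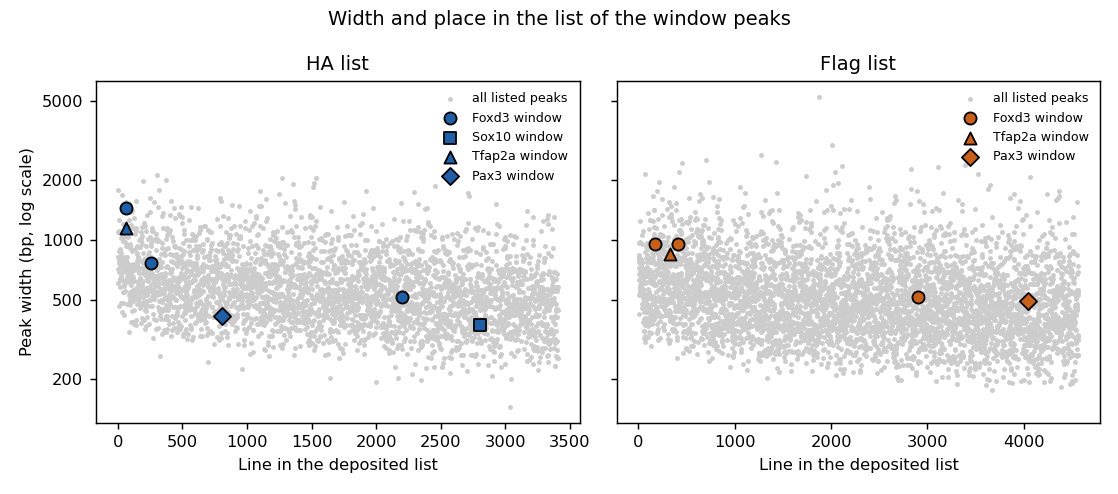
Width in bp (log axis) against line number for every listed peak (grey) and for the window peaks (coloured), HA on the left and Flag on the right. The first and second Foxd3 peaks and the Tfap2a peak are early and wide in both panels, the remaining Foxd3 peak is late in both, and the Pax3 peak moves from line 808 in HA to line 4045 in Flag.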

How the data were processed

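The authors deposited 1 peak list per antibody, with positions in base pairs as the only measured value (tested on the files: 3 columns, no header). Per the submitters' processing notes, positions refer to mm9. The aligner, peak caller, threshold and use of the input were not given in the sources used here. Per the labels' protocols, fragments of 200 to 700 bp were cut from a gel and amplified for 18 PCR cycles.

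Starts were converted to 1-based positions. Peaks overlapping by at least 1 bp were called shared, and counts were equal to those of bedtools 2.31.1. Tiles ran from position 1 of each chromosome to the largest peak end in either list. Exact intervals are Clopper-Pearson. The code, in Python 3.11.15 with numpy 2.4.6, pandas 2.3.3, scipy 1.17.1 and matplotlib 3.10.9, was tested on simulated data. All 4 genes and every peak in their windows are named. The windows, members and lists were chosen with earlier results of these data known. Alternatives varied the window, the peaks kept, the overlap and the tiles. Other neural crest genes were not examined, because no mm9 annotation was used. Promoters and gene order are from RefSeq, GRCm38.p6, and 2 of the 4 genes matched a promoter.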

Additional observations from a re-analysis of the deposited data

How the results depend on the processing

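Of 76 values recomputed under alternatives, 65 stayed within 1.5 times the main count or inside the interval of the main share. Some of these could not move, so the tally is no measure of robustness. Every window peak lay at least 8.3 kb inside its window edge, which fixed the 8 values for peak centres inside and the 8 for whole peaks inside. Allowing a gap of 500 bp (2 values) could add nothing, as the unshared Sox10 peak lay 312 kb from any Flag peak. The Sox10 window, empty in Flag, could lose no peak when the window was shortened or peaks were left out. A fall from 3 to 2 Foxd3 peaks sits on the 1.5 bound and counts as unchanged. Foxd3 kept 2 or 3 peaks in each list under every alternative window and peak subset, and Tfap2a kept 1. Among the other windows, the Sox10 HA peak was lost (0 peaks) when the window was shortened to 50% of its length, when only the wider 50% of the list was kept and when only the first 50% of lines was kept. Pax3 had 0 HA peaks in the wider 50% and 0 Flag peaks in the first 50% of lines. Doubling the windows added no peak. The 5 shared peaks of each list stayed shared when 50% of each peak had to overlap. With tiles on the window's own chromosome only, 6 of 8 shares holding a peak left the interval of the main share. For Foxd3 in Flag the share went from 24.9% to 25.8%. For Sox10 it went from 20.0% to 17.3% in HA and from 24.9% to 23.4% in Flag. For Tfap2a in Flag it went from 27.2% to 25.9%. For Pax3 it went from 26.2% to 22.7% in HA and from 32.5% to 27.0% in Flag. The HA shares for Foxd3 (20.7%) and Tfap2a (22.1%) stayed inside. No paired analysis was possible because the series holds a single library for either antibody, and no replicate could be left out. Depth is unknown, so no limit can be set on signal below the threshold of each list.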
